A study of Mus musculus with 36 samples.

Results

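Mouse embryos of the 8-cell stage were compared with embryos of the 2-cell stage within the group labelled NI, over all genes. This comparison rests on 10 of the 36 RNA-seq libraries of the series, 6 of NI 8-cell embryos (NI 8C) and 4 of NI 2-cell embryos (NI 2C), chosen by their labelled treatment and stage alone. Each library was made from pooled whole embryos, 4 to 5 per pool by the series' design text, with SMART-seq v4, a poly(A)-primed full-length cDNA kit for very small RNA amounts. The labels do not spell out NI, they give no strain, sex or hour of collection, and the protocol text shared by all samples says that embryos were injected. The same stages of the embryos labelled Ctrl (6 libraries at 8C and 7 at 2C) were compared only in a test of whether the stage difference itself differed. All 36 libraries were fitted together, however, and the other groups thus helped to set the gene filter, the scaling and the estimated spread. The labels do not say that the pools came from separate matings or days, so every p-value speaks only of how far the pools vary among themselves, and that variation may be technical. Stage and any difference in collection cannot be told apart.

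A mouse embryo starts on RNA that the oocyte stored, among it messages for the egg coat, for meiotic arrest and for RNA storage proteins. During the 2-cell stage most of that RNA is degraded and the embryonic genome is switched on, with a short burst of stage-specific genes and retrotransposons. By the 8-cell stage the blastomeres are transcribing their own genes for protein synthesis, energy metabolism and cell contact, and they begin to flatten against each other and to polarise.

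Total counts ran between 1103585 and 13583540 per library in NI 8C and between 1376630 and 4962018 in NI 2C. Levels are given as CPM, the usual depth-scaled count, with the library size scaled by the trimmed mean of M-values. Differences are log2 of NI 8C over NI 2C, from edgeR's quasi-likelihood test with Benjamini-Hochberg adjustment over all 13158 genes tested. The value after ± is an approximate standard error (SE), unless an SD is named. It was derived from the test as the absolute log2 difference divided by the square root of the F statistic. Libraries fell into subsets within both stages. In NI 2C, log2 levels over the 13158 genes correlated at 0.931 between replicates 2 and 4 and at 0.843 between replicates 1 and 3, against 0.714 to 0.8 for the other 4 pairs. In NI 8C, replicates 5 and 6 correlated at 0.933 and the 6 pairs among replicates 1 to 4 at 0.938 to 0.959, against 0.846 to 0.912 for the other 8 pairs. Pairs of 1 NI 8C and 1 NI 2C library lay lower, at 0.458 to 0.687. What sets these subsets apart was not tested. Many calls that changed without one of the subsets are named with the result, but not all. Among those not marked there, Pramel4, Ccdc51, Sapcd2, Socs3, Dsc2 and Me2 did not pass without NI 2C replicates 1 and 3. Plk4, Pdk3, Iars, Nlrp4g, Eif3b and Psmg3 did not pass without NI 2C replicates 2 and 4.

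Much of the measured transcriptome differed between the stages. Of 13158 genes tested, 6560 (49.9%) passed an adjusted p of 0.05, of which 2432 (18.5% of those tested) were higher and 4128 (31.4%) lower in NI 8C. In this fit of all 36 libraries the losses were also deeper: 2505 genes were at least 8-fold lower, against 796 at least 8-fold higher, and 987 were at least 32-fold lower, against 163 at least 32-fold higher. The 8-fold and 32-fold counts are of this fit alone and depend on its filter and scaling. For 4400 genes (33.4%) the libraries of the stages did not overlap, 1677 with every NI 8C library above every NI 2C library and 2723 with every one below. These are shares of a fixed total, and a gene that lost no RNA per embryo can still fall. The median gene stood at −0.47, a value that moved with the scaling and the filter. When only the 10 NI libraries were fitted and scaled, 2494 genes were higher and 2597 lower, so that 49% of the changed genes were higher instead of 37.1%, and the median gene stood at 0.09. With RLE scaling of all libraries it stood at −0.72. The count of changed genes was 5198 without NI 2C replicates 1 and 3 (1685 higher, 3513 lower), 5868 without NI 2C replicates 2 and 4 (2226 higher, 3642 lower) and 6047 without NI 8C replicates 5 and 6 (2466 higher, 3581 lower).

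**Figure D1:**
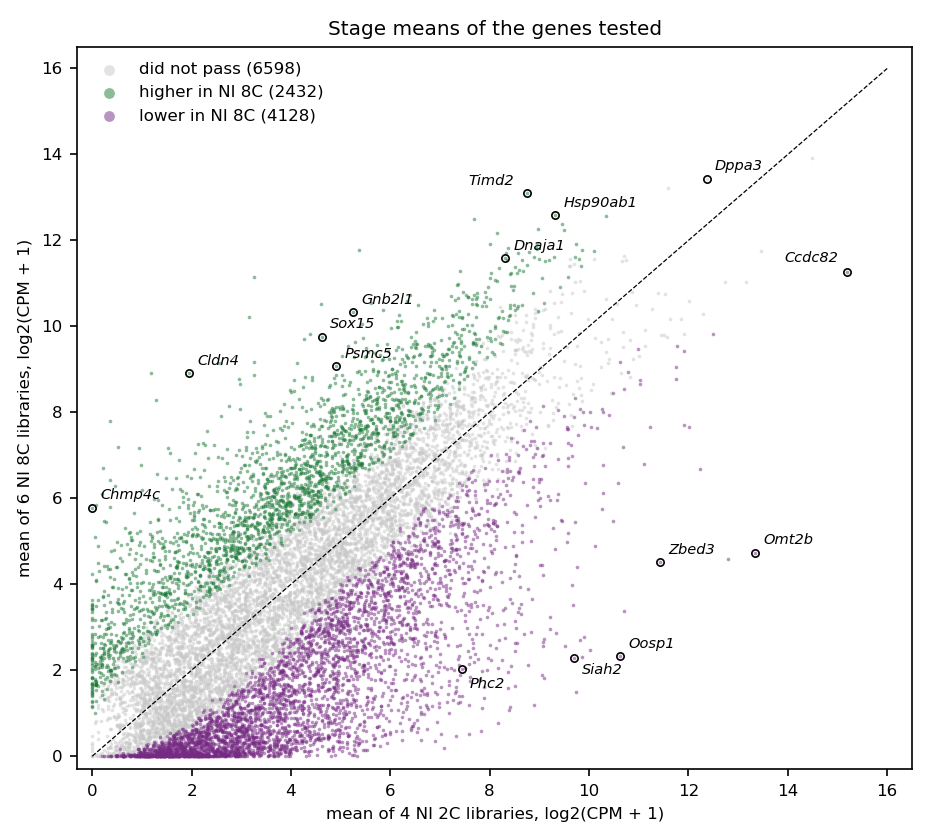
Each point is 1 of the 13158 genes tested, with its mean level in the 6 NI 8C libraries (vertical axis) against its mean in the 4 NI 2C libraries (horizontal axis), both as log2(CPM + 1) of the mean. Green genes (2432) passed as higher and purple genes (4128) as lower in NI 8C, grey genes (6598) did not pass, and the dashed line marks equal levels.

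Fewer genes were detected at the later stage. At 1 CPM or more, 10400 ± 258 genes were found in NI 8C libraries (SD, n = 6) and 12159 ± 362 in NI 2C libraries (SD, n = 4), a difference of −1760 (two-sided exact permutation test, p = 0.00476, the smallest that 210 arrangements allow). With every library thinned to 1103585 counts, 9804 ± 537 genes had at least 2 counts in NI 8C and 11812 ± 559 in NI 2C. The 10 genes with the most counts took 7.97% ± 1.2 of the counts in NI 8C and 14.7% ± 3.63 in NI 2C (SD, n = 6 and 4, exact permutation p = 0.00476). For the 50 genes with the most counts the shares were 20.7% ± 2.72 in NI 8C and 27.4% ± 6.96 in NI 2C (exact permutation p = 0.0571), a difference of −6.79 percentage points that was −1.15 without NI 2C replicates 1 and 3. In NI 8C the list was led by the ribosomal RNA precursor Rn45s, Dppa3 (a maternal-effect chromatin protein), the autophagy gene Map1lc3b, the surface receptor gene Timd2, the nucleolar chaperone Npm1, the heat shock proteins Hsp90ab1 and Hspa8, and the histone chaperone Set. In NI 2C it was led by Ccdc82, Rn45s, Zmynd8, Omt2b, A230046K03Rik, Omt2a, Churc1 and Casc4. Timd2 shows the turnover: it reached 3812 to 13685 CPM in NI 8C (median 9954), against 126, 703, 39.6 and 848 CPM in NI 2C (log2 difference 4.35 ± 1.04, adjusted p = 0.000707). Zmynd8 did not pass, with 808 to 7373 CPM in NI 8C (median 3065) and 18248, 4968, 20088 and 1764 CPM in NI 2C (−1.70 ± 0.89, adjusted p = 0.107), and replicates 1 and 3 were the high ones, as they were for A230046K03Rik, Churc1 and Casc4.

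Most genes of the maternal lists fell, with meiotic genes the exception. Of 12 genes for the egg coat and for factors the egg secretes, 11 fell and none rose, with a list median of −4.66 beside −0.47 for all genes. Oosp1, an oocyte-secreted protein gene, was at 0.922 to 9.45 CPM in NI 8C (median 3.18), against 679, 848, 4345 and 445 CPM in NI 2C (−8.71 ± 0.87, adjusted p = 1.11e-09). Gdf9, a growth factor by which the oocyte instructs its follicle, was at 1.38 to 10.9 CPM (median 6.03) in NI 8C, against 116, 290, 163 and 194 CPM in NI 2C (−4.95 ± 0.64, adjusted p = 1.1e-07). Neither gene's libraries overlapped between stages, and NI 2C replicate 3 held the highest Oosp1 level.

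Genes of the subcortical maternal complex, a protein assembly under the oocyte membrane that mouse embryos need to pass the 2-cell stage, and of the oocyte Nlrp family fell in 14 of 17 cases (median −5.10). Zbed3, a member of the complex, was at 7.74 to 69.6 CPM in NI 8C (median 11.8), against 951, 2866, 5469 and 1659 CPM in NI 2C (−6.96 ± 0.94, adjusted p = 2.1e-07). Nlrp9a, Nlrp9c and Nlrp2 also fell, with log2 differences of −5.61, −5.39 and −5.55. One member of the complex went the other way: Khdc3, also called Filia, had 316 to 1404 CPM in NI 8C (median 732), against 9.24, 91.4, 3.6 and 48.5 CPM in NI 2C (4.36 ± 0.80, adjusted p = 2.67e-05). Every NI 8C library stood above every NI 2C library for Khdc3 and below every one for Zbed3.

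Of 30 tested factors that store, translate or degrade oocyte messages, 20 fell and 2 rose (median −3.49). Zar1, which binds and keeps maternal messages, was at 0 to 1.22 CPM in NI 8C (median 0.796), against 48.6, 76, 63.3 and 27.6 CPM in NI 2C (−6.43 ± 0.73, adjusted p = 9.15e-09). Cnot6l, the deadenylase subunit that shortens maternal poly(A) tails, was at 2.75 to 6.03 CPM (median 4.25) in NI 8C, against 75.1, 108, 411 and 158 CPM in NI 2C (−5.38 ± 0.59, adjusted p = 5.23e-09). The decapping enzyme gene Dcp2 fell by 4.14 and Tob2, a deadenylase adaptor, fell by 3.98. The set that fell thus held binding proteins of stored RNA together with enzymes that remove it, and the RNA-binding protein gene Igf2bp2 (2.07 ± 0.63) was among the 2 that rose, though it did not pass without NI 2C replicates 2 and 4.

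Of 22 meiotic genes, 9 fell (40.9%, beside 31.4% of all genes) and 3 rose (median −1.24), with Aurkc and Dmc1 among those that rose. Without NI 2C replicates 1 and 3, 7 fell and 1 rose, and Aurkc did not pass. Wee2, the oocyte kinase that holds the meiotic arrest, was at 0 to 6.89 CPM in NI 8C (median 0.298), against 69.6, 225, 186 and 173 CPM in NI 2C (−6.58 ± 0.89, adjusted p = 2.21e-07). Hormad1, a protein of meiotic chromosome axes, was still at 18.3 to 36.2 CPM in NI 8C (median 29.8), against 238, 104, 44.6 and 634 CPM in NI 2C (−3.13 ± 0.66, adjusted p = 0.000176). Both were lower in every NI 8C library than in any NI 2C library.

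The genes with the smallest p among those lower were not on these lists. Phc2, a Polycomb group protein gene, was at 2.36 to 3.99 CPM in the 6 NI 8C libraries (median 2.97), against 186, 223, 135 and 145 CPM in NI 2C (−5.79 ± 0.44, adjusted p = 2.37e-12). Siah2, a ubiquitin ligase, was at 1.59 to 6.41 CPM in NI 8C (median 4.24), against 727, 573, 1630 and 365 CPM in NI 2C (−7.69 ± 0.61, adjusted p = 6.12e-12). Dusp7, a phosphatase of MAP kinases, was at 0 to 5.51 CPM in NI 8C (median 4.15), against 408, 404, 642 and 302 CPM in NI 2C (−7.02 ± 0.57, adjusted p = 1.15e-11). These genes were picked by their p, a choice that favours a small spread within a stage beside the gap between stages. Rgs17, Papd7, Angel2, Glcci1, Fhod3, Cdr2, Unc13c, Parp12 and Eif4e3 followed, with log2 differences of −4.71 (Glcci1) to −7.18 (Rgs17). Papd7 encodes a non-canonical poly(A) polymerase and Rgs17 a regulator of G protein signalling.

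**Figure D2:**
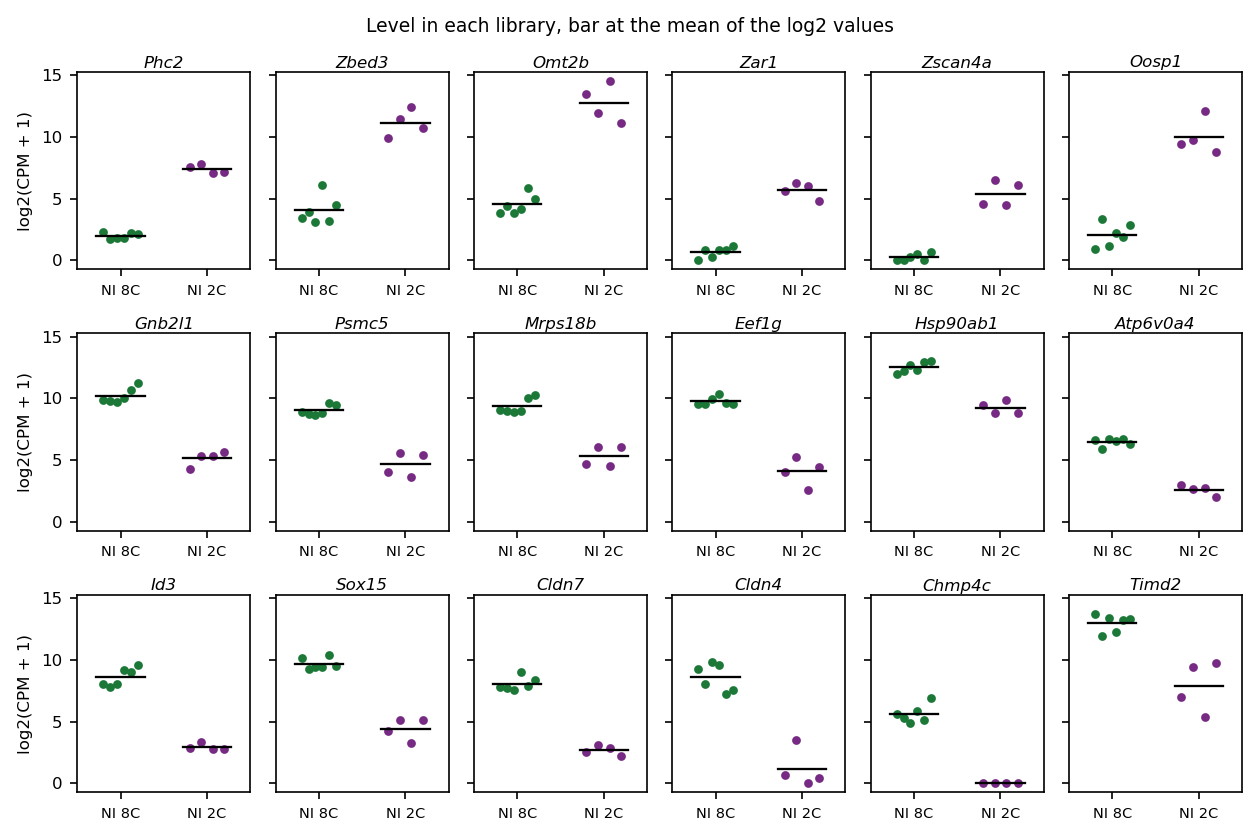
Level of 18 genes in each of the 6 NI 8C libraries (green, left) and 4 NI 2C libraries (purple, right) as log2(CPM + 1), replicates in order, with a bar at the mean of the log2 values. The 6 genes of the upper row lie lower in every NI 8C library and the other 12 lie higher in every NI 8C library, and Chmp4c is at 0 in all 4 NI 2C libraries.

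Oocyte gene families that sit in tandem arrays fell most, as a list. Of 30 tested Fbxw, Oog, Tcl1, Obox and Omt2 genes 28 fell and 1 rose (median −5.71). Omt2b, an oocyte transcript, was at 13.5 to 57.9 CPM in NI 8C (median 18.9), against 11168, 3969, 24013 and 2248 CPM in NI 2C (−8.66 ± 0.99, adjusted p = 1.23e-08). Tcl1b5, of the Tcl1 family of small kinase cofactors, was at 0 to 2.11 CPM in NI 8C (median 0.252), against 90.5, 295, 433 and 88.4 CPM in NI 2C (−8.28 ± 0.92, adjusted p = 5.84e-09). The gene that rose was the homeobox gene Obox6, at 1053 to 2370 CPM in NI 8C (median 2067), against 65.9, 555, 31.7 and 763 CPM in NI 2C (2.38 ± 0.79, adjusted p = 0.012). It did not pass without NI 2C replicates 1 and 3, the low ones. These families hold near-identical copies, so RSEM had to share reads among them and the level of a single copy is uncertain.

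Transcripts of the 2-cell burst fell as a list. Of 29 tested, 24 fell and none rose (median −5.29). Their summed level was still 476 to 1298 CPM in NI 8C (median 948), against 1796 to 4690 CPM in NI 2C (median 4611). Members other than the 2 named next thus kept RNA in NI 8C. Zscan4a, of the Zscan4 telomere regulators, was at 0 to 0.611 CPM in NI 8C (median 0.0992), against 22.8, 90.7, 20.9 and 66.2 CPM in NI 2C (−7.53 ± 0.91, adjusted p = 3.01e-08). Gm8300, an Eif1a-like gene, was at 0.992 to 7.09 CPM in NI 8C (median 2.48), against 137, 187, 175 and 423 CPM in NI 2C (−6.23 ± 0.63, adjusted p = 1.11e-09). The NI 2C pools all held these transcripts, and no NI 8C library reached the lowest of them for either gene. The Zscan4 and Eif1a-like genes are also families of similar copies, so the level of a single copy is uncertain here too.

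Genes lower in NI 8C also lay side by side, among them the arrayed oocyte families and the Eif1a-like genes. Along the mm10 (GRCm38) chromosomes, with gene positions of GENCODE vM21, 32 runs of at least 6 neighbouring tested genes were all lower and 2 were all higher. Of all genes tested, 31.4% were lower and 18.5% higher, and lower genes would thus form more runs than higher ones in any order. Whether the runs exceed those of a random gene order was not tested. The longest ran over 14 genes on chromosome 9 (109095389 to 109790670), from Plxnb1 through 13 Fbxw genes, with a median of −4.28. The nearest tested genes outside it, Ccdc51 at 2.28 (adjusted p = 0.00842) and 3000002C10Rik at −1.12 (adjusted p = 0.329), did not pass as lower. A run of 12 Eif1a-like and related genes on chromosome 12 (87514316 to 88324026) had a median of −5.38. It was flanked by Snw1 at 1.28 (adjusted p = 0.0431, a call lost under 10 of 17 alternatives) and Adck1 at 1.67 (adjusted p = 0.0539). Beyond Adck1, Nrxn3 at −3.84, Cep128 at −3.21, Gtf2a1 at −2.4 and Ston2 at −2.17 passed as lower again. A run of 12 Oog4, Pramef and related genes on chromosome 4 (143437164 to 143994369) had a median of −6.02, and the next 2 genes, Pramel4 and Gm13102, were higher in NI 8C by 2.24 and 2.93. Past these, Oog3 at −6.45, Oog2 at −6.47 and C87977 at −2.91 passed as lower again. Of the next longest runs, Igsf23 to Nlrp5 on chromosome 7 (19937305 to 23441922, 11 genes, median −4.61) held oocyte Nlrp genes and Vmn1r genes. The run from Gyg to Eif5a2 on chromosome 3 (20122084 to 28798846, 11 genes, median −4.39) is not an array of 1 family and extends over 8.68 Mb. Its last gene, Eif5a2, lost its call under 9 of 17 alternatives. A run of 10 genes from Sema3e to Gnai1 on chromosome 5 (median −3.40) extends over 4.34 Mb. It is likewise not an array of 1 family throughout, though it held the related genes Speer4e, Speer7-ps1 and Speer4f. A run chosen after its values were seen, from Oas3 to Ptpn11 on chromosome 5 (120753098 to 121191397, 9 genes, median −5.96), held 6 Oas1 genes, relatives of the interferon-induced RNA sensors, and the neighbouring gene Rpl6 was higher by 3.31. The higher runs each held 6 genes, Anapc2 to Sapcd2 on chromosome 2 and Psmg3 to Eif3b on chromosome 5. Anapc2 lost its call under 9 of 17 alternatives.

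**Figure D3:**
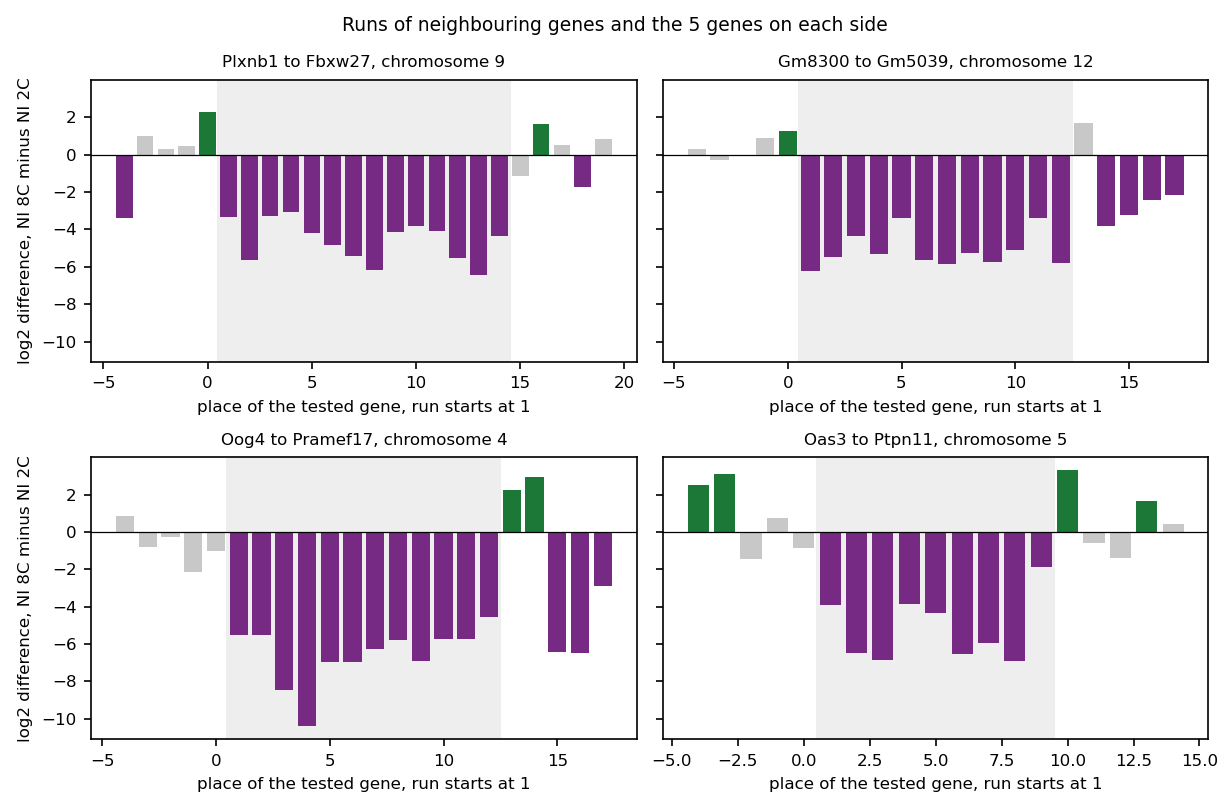
Log2 difference (NI 8C minus NI 2C) of each tested gene in 4 runs of neighbours (grey band) and of the 5 tested genes on each side, in chromosomal order. Purple bars passed as lower, green bars as higher, and grey bars did not pass. Inside the bands all genes are lower. Among the genes beside the bands some are higher, some are lower and some did not pass.

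The promoters of the arrayed oocyte genes held fewer CG dinucleotides than those of the genes that rose, a description with no test. The 250 bases before the annotated start were read from RefSeq (GRCm38.p6) for 10615 of the 13158 genes tested. The observed-to-expected ratio of CG dinucleotides had a median of 0.0893 in the arrayed oocyte families (26 of 30 with a sequence), 0.196 in the subcortical complex and Nlrp genes (15 of 17), 0.784 in proteasome genes (37 of 45) and 0.769 in mitochondrial ribosomal protein genes (67 of 76), beside 0.714 in all genes tested. Over all changed genes it was 0.732 in the 2432 higher and 0.675 in the 4128 lower genes. To show the contrast, the windows of 2 housekeeping genes that rose and of 3 arrayed genes that fell are printed 5′ to 3′ on the gene's strand, with every CG in capitals. They are chr11:106255935-106256184 (+) for Psmc5, chr17:35916441-35916690 (−) for Mrps18b, chr9:78327780-78328029 (+) for Omt2b, chr9:109449141-109449390 (−) for Fbxw16 and chr12:105176094-105176343 (+) for Tcl1b5.
Psmc5: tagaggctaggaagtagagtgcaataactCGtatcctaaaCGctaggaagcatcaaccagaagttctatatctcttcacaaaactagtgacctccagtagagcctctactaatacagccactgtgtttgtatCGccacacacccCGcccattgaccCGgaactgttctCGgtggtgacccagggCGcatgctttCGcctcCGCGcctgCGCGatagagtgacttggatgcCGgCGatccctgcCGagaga
Mrps18b: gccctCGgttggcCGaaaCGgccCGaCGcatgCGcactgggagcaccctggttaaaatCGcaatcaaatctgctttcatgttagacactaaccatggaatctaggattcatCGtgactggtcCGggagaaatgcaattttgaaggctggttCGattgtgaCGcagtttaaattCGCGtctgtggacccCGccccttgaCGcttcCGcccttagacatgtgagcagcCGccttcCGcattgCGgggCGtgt
Omt2b: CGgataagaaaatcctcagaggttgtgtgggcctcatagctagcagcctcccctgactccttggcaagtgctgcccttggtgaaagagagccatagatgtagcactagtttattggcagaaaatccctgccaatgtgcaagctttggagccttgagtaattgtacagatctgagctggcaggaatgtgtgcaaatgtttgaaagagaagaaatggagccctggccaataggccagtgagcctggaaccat
Fbxw16: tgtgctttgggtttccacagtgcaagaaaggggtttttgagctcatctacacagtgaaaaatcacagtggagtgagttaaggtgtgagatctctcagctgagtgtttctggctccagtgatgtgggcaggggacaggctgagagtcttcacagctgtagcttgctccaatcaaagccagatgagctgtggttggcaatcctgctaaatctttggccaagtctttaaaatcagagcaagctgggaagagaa
Tcl1b5: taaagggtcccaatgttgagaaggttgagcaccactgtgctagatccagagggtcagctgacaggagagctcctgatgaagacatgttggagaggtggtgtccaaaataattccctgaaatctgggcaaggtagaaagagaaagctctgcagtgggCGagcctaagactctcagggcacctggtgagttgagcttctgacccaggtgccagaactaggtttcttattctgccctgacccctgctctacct
Psmc5 holds 15 CG dinucleotides and Mrps18b 20, against 1 in Omt2b, 0 in Fbxw16 and 1 in Tcl1b5. A search of both strands for the ETS core CCGGAAG found it in 32.4% of the proteasome windows, 22.4% of the mitochondrial ribosomal windows and none of the arrayed oocyte windows. The share was 16.8% in the higher genes and 9.24% in the lower genes, beside 13.6% of all windows, so most genes that rose did not hold it. Genes that fell were also longer: the median span from first to last exon was 15.7 kb for the higher genes and 35.9 kb for the lower genes, beside 23.7 kb for all genes tested.

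For proteins that exist in an oocyte form and a general form, the balance moved toward the general form. In 23 such pairs the log2(CPM + 1) of the oocyte-type gene minus that of its relative was computed in each library, a value in which gene length adds the same constant at both stages. It was lower in NI 8C for 14 pairs and higher for none (exact permutation test over the 10 libraries, two-sided, adjusted over the 23 pairs, adjusted p = 0.0122 to 0.0235). In 11 pairs the stages did not overlap in this value, and 33.4% of all genes tested did not overlap in level. The oocyte form fell in 17 of 21 tested pairs, where 31.4% of all genes were lower. It rose in 2, Igf2bp2 and Aurkc, each of which lost its call without a subset of NI 2C libraries. The general form rose in 4 of 23 (Npm1, Pabpc1, Igf2bp1 and Stag2), where 18.5% of all genes were higher. It fell in 3 (Lsm14a, Cpeb4 and Ldha), but these calls of the general form were in part unsteady. Igf2bp1 and Ldha did not pass under most alternatives, Stag2 did not under 5 of 17, and Ldha stood at 0.40 without NI 2C replicates 2 and 4.

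In only 2 pairs did the oocyte form fall while the other rose. Npm2, the oocyte nucleoplasmin that unpacks sperm chromatin, was at 5.53 to 46.6 CPM in NI 8C (median 11), against 574, 70.8, 743 and 37.3 CPM in NI 2C (−4.25 ± 0.78, adjusted p = 2.73e-05). It did not pass without NI 2C replicates 1 and 3. Npm1, its nucleolar relative, was at 3908 to 12357 CPM in NI 8C (median 4577), against 1127, 820, 1696 and 1536 CPM in NI 2C (2.24 ± 0.51, adjusted p = 0.000469). Their difference of logs was −8.52 ± 0.742 in NI 8C (SD, n = 6) and −2.75 ± 2.07 in NI 2C (SD, n = 4). The other was Pabpc1l and Pabpc1, the oocyte and general poly(A)-binding proteins, at −3.96 ± 1.16 (adjusted p = 0.00468) and 1.71 ± 0.62 (adjusted p = 0.0202). The fall of Pabpc1l was not called without NI 2C replicate 3, and the rise of Pabpc1 not without NI 2C replicate 2 or 4.

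More often the general form did not pass. The oocyte linker histone H1foo was at 0.787 to 2.75 CPM in NI 8C (median 1.42), against 153, 348, 352 and 91.7 CPM in NI 2C (−7.19 ± 0.79, adjusted p = 5.23e-09), while H1f0 had 15 to 52 CPM in NI 8C (median 40.2) and 39.4, 43.7, 34.5 and 28 CPM in NI 2C (0.07 ± 0.56, adjusted p = 0.932). H1foo thus went out of range in every NI 8C library, and H1f0 kept overlapping levels. The cap-binding gene Eif4e1b was at 0 to 0.887 CPM in NI 8C (median 0), against 36.3, 23.5, 89.3 and 5.44 CPM in NI 2C (−6.54 ± 1.03, adjusted p = 2.83e-06). Its relative Eif4e had 930 to 2904 CPM in NI 8C (median 1702) and 102, 982, 120 and 2012 CPM in NI 2C (1.13 ± 0.63, adjusted p = 0.13), so that NI 2C replicates 2 and 4 were already in the NI 8C range and replicates 1 and 3 were below it. The nuclear import receptor Kpna2 split the NI 2C pools the same way, at 170 to 4477 CPM in NI 8C (median 1724) and 103, 1368, 136 and 2209 CPM in NI 2C (0.92 ± 0.79, adjusted p = 0.336). Both oocyte forms fell, Eif4e1b as given and Kpna7 with a log2 difference of −5.59. With NI 2C replicates 1 and 3 or 2 and 4 left out, no pair passed after adjustment over 23 pairs. The arrangements of 6 against 2 libraries are too few for a pair to pass readily, so this count cannot say how steady the pairs are.

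**Figure D4:**
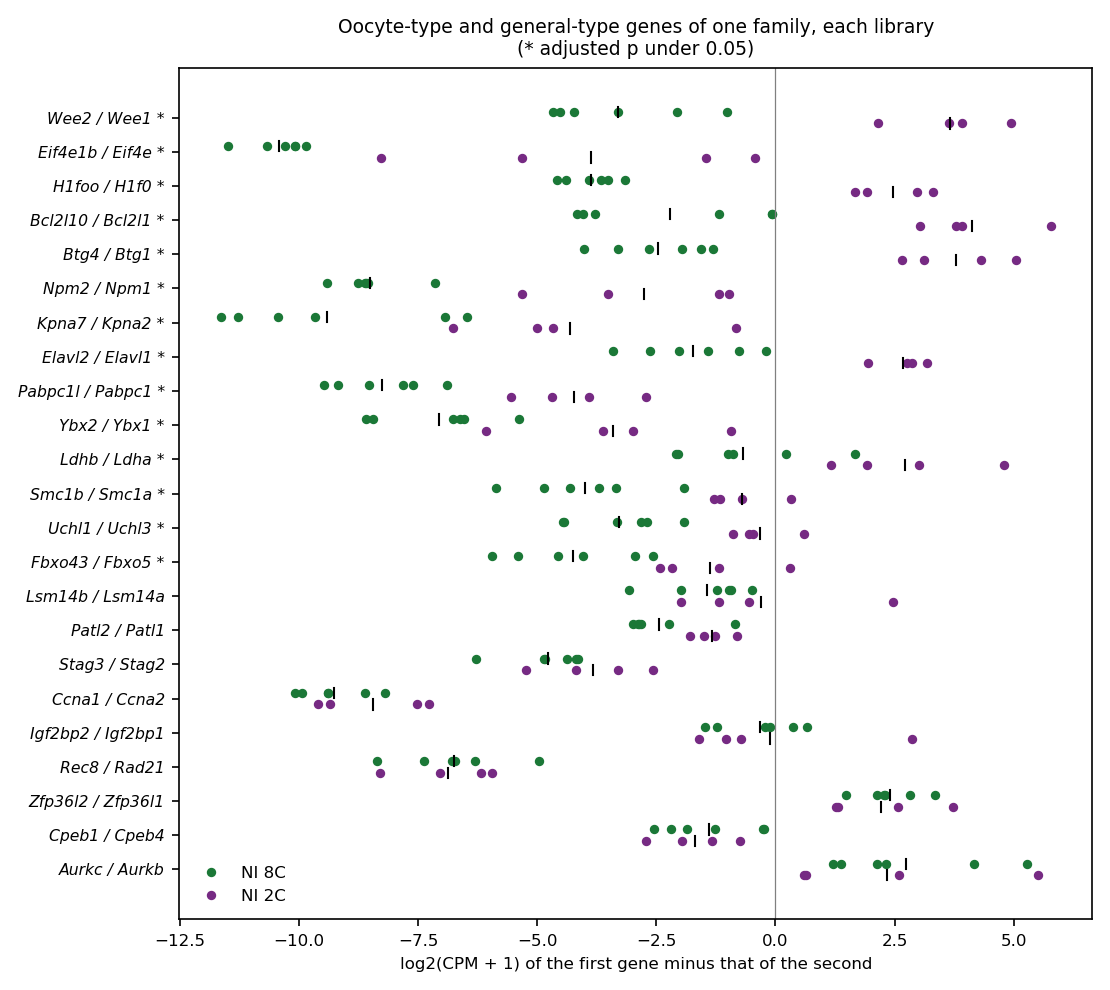
For 23 gene pairs (rows), log2(CPM + 1) of the oocyte-type gene minus that of its general-type relative in each NI 8C library (green, upper line of each row) and NI 2C library (purple, lower line), with a black tick at each mean. The 14 pairs with a star passed at an adjusted p of 0.05, and in all of them the NI 8C mean lies to the left, toward the general form.

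Among the genes that rose, the machinery that makes, folds and removes protein stood out by its counts. Of 45 tested proteasome genes 37 rose and 2 fell (82.2% higher, beside 18.5% of all genes; median 2.51). Psmc5, an ATPase of the proteasome cap, had 411 to 768 CPM in NI 8C (median 466), against 15.4, 46.8, 11.5 and 42.6 CPM in NI 2C (4.20 ± 0.51, adjusted p = 2.76e-08). Psmc4, another cap ATPase, rose by 4.57 and the lid-side subunit gene Psmd8 by 3.59, with no overlap of stages for any of these genes. The 2 that fell were not core subunits: Psme4, the PA200 activator known for histone degradation in the mouse testis, was at 14.1 to 29.7 CPM in NI 8C (median 20.6), against 147, 152, 243 and 242 CPM in NI 2C (−3.25 ± 0.40, adjusted p = 4.8e-08), and Psme2, a subunit of the interferon-inducible activator, fell by 2.26, a call lost without NI 2C replicate 1.

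Of 59 translation initiation and elongation factors 33 rose and 7 fell (median 1.71). Eef1g, a subunit of the elongation factor that loads tRNA, had 749 to 1313 CPM in NI 8C (median 778), against 15.4, 38.1, 5.04 and 20.8 CPM in NI 2C (5.48 ± 0.79, adjusted p = 6.75e-07). Eif3d, of the initiation complex that joins the small ribosomal subunit, rose by 4.52. Gnb2l1, the ribosome scaffold also called Rack1, had 852 to 2388 CPM in NI 8C (median 985), against 18.5, 40.5, 38.9 and 50.5 CPM in NI 2C (5.12 ± 0.58, adjusted p = 9.15e-09), one of the smallest p among genes that rose. The largest fall was of the oocyte cap-binding gene Eif4e1b, and Eif4e3, its relative, was at 2.18 to 7.09 CPM in NI 8C (median 2.91), against 119, 239, 514 and 119 CPM in NI 2C (−6.05 ± 0.60, adjusted p = 9.88e-10). Of 23 tested genes of the cytosolic tRNA synthetases and their scaffold, 17 rose and 1, Iars, fell (median 1.72); with NI 2C replicates 1 and 3 left out, 11 rose.

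Mitochondrial ribosomal protein genes rose in 48 of 76 cases and fell in none (median 1.90), and the count was 28 without NI 2C replicates 2 and 4. Mrps18b had 468 to 1270 CPM in NI 8C (median 517), against 25.2, 66, 21.6 and 67 CPM in NI 2C (3.99 ± 0.57, adjusted p = 5.7e-07), and Mrpl15, of the large subunit, rose by 4.63. Of 37 genes of pyruvate oxidation and the citrate cycle, 15 rose and 5 fell (median 0.96). Suclg1, which makes succinate from succinyl-CoA, had 97.4 to 399 CPM in NI 8C (median 138), against 1.23, 6.48, 2.16 and 6.1 CPM in NI 2C (5.47 ± 0.79, adjusted p = 6.39e-07). The pyruvate dehydrogenase subunit Pdha1 rose by 3.19, while its inhibitory kinases Pdk1, Pdk2 and Pdk3 were among the 5 that fell, with Ogdh and Me2. Pdk2 did not pass without NI 8C replicate 3 or NI 2C replicate 3, and Ogdh did not without NI 8C replicate 6 or NI 2C replicate 1 or 3. Without NI 2C replicates 1 and 3, 7 of these genes rose and 2 fell, and without NI 2C replicate 3, 3 fell.

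Of 32 chaperones, 18 rose and 1 fell (median 1.92). Hsp90ab1 had 4027 to 8350 CPM in NI 8C (median 5771), against 700, 443, 954 and 447 CPM in NI 2C (3.27 ± 0.53, adjusted p = 4.99e-06), and Dnaja1, an Hsp70 helper, had 2367 to 3859 CPM in NI 8C (median 3014), against 290, 277, 271 and 428 CPM in NI 2C (3.28 ± 0.49, adjusted p = 1.21e-06). Chaperonin subunits Cct5 and Cct7 rose by 3.80 and 3.95. The gene that fell was Fkbp5, a co-chaperone of steroid receptors, by 3.77. Hspa8 rose as well (4.82 ± 0.91, adjusted p = 3.88e-05), but over a wide range in NI 8C, at 871 to 16225 CPM.

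Lysosomal and proton pump genes rose in 26 of 46 cases and fell in 1 (median 1.85; 17 rose without NI 2C replicates 1 and 3, and 3 fell without NI 8C replicate 2, with RLE scaling or with DESeq2). Atp6v0a4, a membrane subunit of the proton pump that acidifies lysosomes, had 59.8 to 106 CPM in NI 8C (median 95.1), against 6.77, 5.52, 5.76 and 3.13 CPM in NI 2C (4.10 ± 0.54, adjusted p = 1.43e-07). Npc2, a cholesterol carrier of the lysosome, had 527 to 981 CPM in NI 8C (median 714), against 48.6, 110, 31.7 and 106 CPM in NI 2C (3.26 ± 0.47, adjusted p = 6.59e-07). The single gene that fell was Laptm4b (−3.66 ± 0.57). Lrpap1, a chaperone for LDL receptor family proteins, was not on the list and had 638 to 2298 CPM in NI 8C (median 1380), against 22.8, 42.9, 2.88 and 25.2 CPM in NI 2C (5.95 ± 0.76, adjusted p = 8.05e-08).

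Genes for nucleotide synthesis rose in 16 of 33 cases and fell in 1, Mthfd2 (median 1.81). Thymidine kinase Tk1 had 275 to 826 CPM in NI 8C (median 406), against 54.2, 87.5, 60.5 and 70.8 CPM in NI 2C (2.78 ± 0.43, adjusted p = 2.41e-06). Impdh2, the guanine nucleotide enzyme, had 1124 to 5010 CPM in NI 8C (median 2015), against 56, 293, 23.8 and 299 CPM in NI 2C (3.89 ± 0.87, adjusted p = 0.000349). The cell cycle regulators showed no such lean: 9 of 48 rose (18.8%, beside 18.5% of all genes) and 13 fell (27.1%, beside 31.4%). Those that rose numbered 5 without NI 8C replicate 4 or NI 2C replicate 1 and 4 without NI 2C replicate 3, and 7 fell without NI 2C replicates 2 and 4. E2f1, an activator of S-phase genes, was at 3 to 8.53 CPM in NI 8C (median 6.58), against 83.7, 64.8, 61.2 and 42.9 CPM in NI 2C (−3.39 ± 0.42, adjusted p = 4.83e-08), while the cyclin D kinase Cdk4 had 106 to 247 CPM in NI 8C (median 195), against 9.24, 21.3, 9.36 and 40.6 CPM in NI 2C (3.12 ± 0.57, adjusted p = 2.45e-05). Cholesterol genes gave 6 higher (24.0%, beside 18.5% of all genes) and 2 lower (8.0%, beside 31.4%) of 25. With DESeq2 they gave 6 higher and 6 lower, and with RLE scaling 5 and 4. The synthesis enzymes Fdps and Ebp rose by 3.36 and 2.72 and Hmgcs1 and Insig1 stood at −2.45 and −3.36. Over the whole list, 3 rose and 4 fell without NI 2C replicates 1 and 3, and 4 fell without NI 8C replicate 2.

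Splicing factors rose in 21 of 52 cases and fell in 4 (median 0.93), led by Snrpb (3.91 ± 0.67), a core protein of the small nuclear ribonucleoproteins, and Srsf3 (2.76 ± 0.55). Of the list, 2 fell without NI 8C replicate 3 or NI 2C replicate 1. Subunits of the RNA polymerases gave 5 higher of 27, 18.5% as in all genes, and 1 lower. There were 3 higher without NI 8C replicate 1 or 3 or NI 2C replicate 4, 2 without NI 2C replicate 3, and 8 without NI 2C replicates 2 and 4. That one was Polr2j, at 184 to 601 CPM in NI 8C (median 260) and 2925, 526, 1992 and 262 CPM in NI 2C (−2.04 ± 0.65, adjusted p = 0.00922), which did not pass without NI 2C replicate 1.

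**Figure D5:**
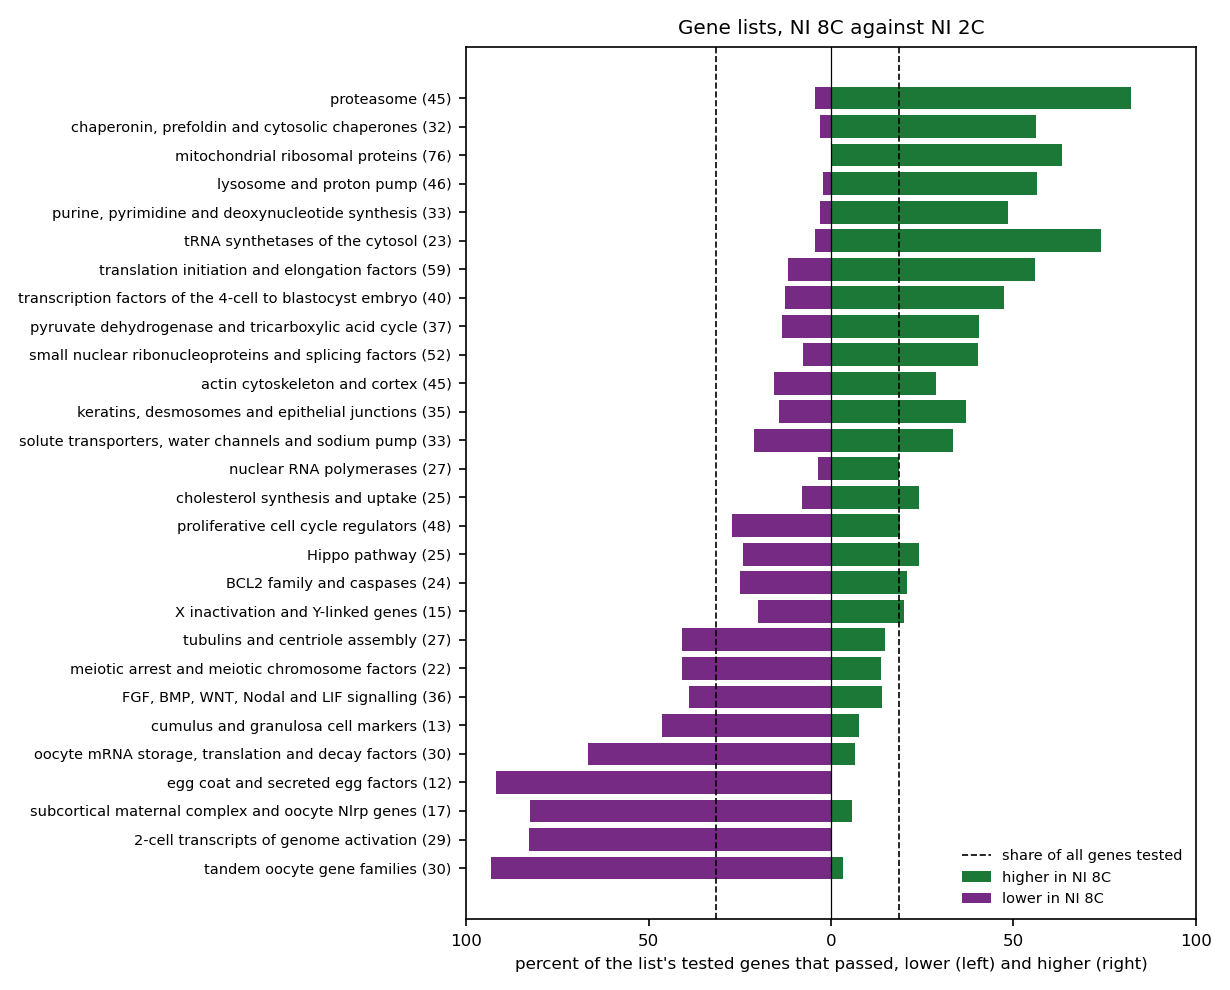
Share of each list's tested genes (number in brackets) that passed as lower in NI 8C (purple, left) or higher in NI 8C (green, right), ordered by the list's median log2 difference. Dashed lines mark the shares of all 13158 genes, 31.4% lower and 18.5% higher; the proteasome list reaches 82.2% higher and the arrayed oocyte families 93.3% lower. Lists with fewer than 10 tested genes are left out.

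Transcription factors of the preimplantation embryo rose in 19 of 40 cases and fell in 5 (median 1.14), and the counts were 11 and 3 without NI 2C replicates 1 and 3. Id3, an inhibitor of basic helix-loop-helix factors, had 219 to 768 CPM in NI 8C (median 395), against 6.16, 9.35, 5.76 and 5.94 CPM in NI 2C (5.98 ± 0.82, adjusted p = 2.76e-07). Sox15, a SoxG factor of pluripotent cells, had 623 to 1337 CPM in NI 8C (median 705), against 17.9, 34.3, 8.64 and 34 CPM in NI 2C (5.17 ± 0.74, adjusted p = 5.99e-07). Both were on in all 6 NI 8C pools at levels no NI 2C pool came near. Gata6, the primitive endoderm factor, had 40.2 to 95.9 CPM in NI 8C (median 84.3), against 3.69, 2.16, 0.72 and 2.97 CPM in NI 2C (4.90 ± 0.69, adjusted p = 4.5e-07). Sox21, a heterogeneity marker of 4-cell blastomeres in mouse, had 5.36 to 22.3 CPM in NI 8C (median 7.3) and no count in any NI 2C library, and was at least 39.9-fold higher against a floor of 3 counts over the 4 libraries. Such floors and intervals cover counting error only. The 5 that fell were Sox2, Id1, Id2, Arid3a and Grhl1. Id2 lost its call under 10 of 17 alternatives, and Sox2 without NI 2C replicates 1 and 3. Within the Id family, Id1 (1.19 to 14 CPM in NI 8C, against 19.1, 49.9, 46.1 and 51 CPM in NI 2C; −2.55 ± 0.73, adjusted p = 0.00402) and Id3 passed in opposite directions.

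Genes of cell contacts and epithelia rose in 13 of 35 cases and fell in 5 (median 0.61). Cldn7, a tight junction claudin, had 189 to 520 CPM in NI 8C (median 226), against 4.93, 7.68, 6.48 and 3.79 CPM in NI 2C (5.63 ± 0.92, adjusted p = 5.31e-06). Cldn4 had 151 to 885 CPM in NI 8C (median 434), against 0.616, 10.6, 0 and 0.33 CPM in NI 2C (7.24 ± 1.23, adjusted p = 9.81e-06). Neither claudin overlapped between stages. N-cadherin, Cdh2, went the other way, at 0 to 1.22 CPM in NI 8C (median 0.0768), against 5.54, 21.6, 23 and 24.6 CPM in NI 2C (−5.83 ± 0.92, adjusted p = 2.95e-06), as did the integrin Itga6 (−3.31 ± 0.44), the desmosome gene Dsc2, Lama1 and Krt20. The call of Krt20 was lost under 10 of the 16 alternatives that gave a value. The keratin pair of the trophectoderm, Krt8 and Krt18, rose by 3.29 and 2.97. Without NI 2C replicates 1 and 3, 8 of the list rose, and without NI 8C replicates 5 and 6, 3 fell.

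The actin list gave 13 higher (28.9%, beside 18.5% of all genes) and 7 lower (15.6%, beside 31.4%) of 45, with genes of opposite kind at its ends. Those higher numbered 8 without NI 2C replicate 2. Villin, Vil1, which builds microvilli, was at 0.402 to 2.36 CPM in NI 8C (median 0.749), against 75.1, 37.9, 263 and 26.9 CPM in NI 2C (−6.78 ± 0.71, adjusted p = 2.02e-09), and Fmn2, the formin that positions the oocyte spindle, fell by 6.40. Pfn1, which feeds actin monomers to growing filaments, had 588 to 1917 CPM in NI 8C (median 821), against 73.9, 78, 83.5 and 42.9 CPM in NI 2C (4.01 ± 0.67, adjusted p = 7.25e-06). Microtubule and centriole genes gave 4 higher (14.8%, beside 18.5% of all genes) and 11 lower (40.7%, beside 31.4%) of 27, near the shares of all genes. Their median was −0.48, beside −0.47 for all genes. Those higher numbered 2 without NI 2C replicate 1 or 3, with none higher without both. Tubg2, a gamma-tubulin, was at 2.18 to 4.15 CPM in NI 8C (median 3.35), against 80, 291, 153 and 135 CPM in NI 2C (−5.62 ± 0.64, adjusted p = 1.13e-08). Plk4, Stil and Cenpj, which start centriole assembly, were among the 11 that fell. Mouse embryos of these stages divide without centrioles.

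Transporters and channels gave 11 higher (33.3%, beside 18.5% of all genes) and 7 lower (21.2%, beside 31.4%) of 33, and 9 and 9 with RLE scaling. There were 7 higher without NI 8C replicate 4 or NI 2C replicate 1, 6 without NI 2C replicate 3 and 5 without NI 2C replicates 1 and 3. Slc7a6, an amino acid exchanger, had 40.6 to 102 CPM in NI 8C (median 72.9), against 1.23, 8.39, 2.16 and 9.4 CPM in NI 2C (3.67 ± 0.59, adjusted p = 3.37e-06). The creatine carrier Slc6a8 had 81.1 to 171 CPM in NI 8C (median 137), against 4.31, 4.08, 0 and 4.45 CPM in NI 2C (5.27 ± 0.97, adjusted p = 2.85e-05), and the taurine carrier Slc6a6 rose by 3.56. The glycine carrier Slc6a9 was among the 7 that fell, though not without NI 2C replicate 3.

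Of 36 signalling genes of the FGF, BMP, WNT, Nodal and LIF pathways 14 fell (38.9%, beside 31.4% of all genes) and 5 rose (13.9%, beside 18.5%), shares near those of all genes (median −1.25). Spry4, a feedback inhibitor of FGF receptors, was at 2.44 to 11.8 CPM in NI 8C (median 5.52), against 262, 400, 355 and 239 CPM in NI 2C (−5.73 ± 0.75, adjusted p = 1.37e-07). The WNT receptor Fzd7 was at 0 to 0.916 CPM in NI 8C (median 0), against 52.9, 13.9, 44.6 and 50.2 CPM in NI 2C (−7.34 ± 1.0, adjusted p = 2.33e-07), and Axin2, a WNT target and inhibitor, fell by 5.04. The genes that rose were the receptors Fgfr2 and Fgfr3, the ligand gene Pdgfa, Socs3 and the Nodal co-receptor Tdgf1. Over the whole list, 3 rose without NI 2C replicates 2 and 4, Fgfr2 lost its call under 10 of 17 alternatives, and Pdgfa lost it without NI 8C replicate 6 or NI 2C replicate 4.

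The Hippo pathway, which links cell position to Tead factors, had 6 of 25 genes higher (24.0%, beside 18.5% of all genes) and 6 lower (24.0%, beside 31.4%), near the shares of all genes. The co-activator Yap1 was at 30.4 to 62.3 CPM in NI 8C (median 46.5), against 291, 280, 898 and 449 CPM in NI 2C (−3.36 ± 0.40, adjusted p = 1.98e-08), whereas its partner Tead4 rose by 3.77 and its close relative Wwtr1 was also among those that rose, a call lost without NI 2C replicate 3. Amotl2, an angiomotin that holds Yap1 out of the nucleus, had 7.64 to 78.4 CPM in NI 8C (median 17.9), against 0, 1.2, 0 and 0 CPM in NI 2C (6.05 ± 1.21, adjusted p = 9.61e-05). Among 24 BCL2 and caspase genes 5 rose (20.8%) and 6 fell (25%), again near the shares of all genes, and 3 fell without NI 8C replicate 6 or NI 2C replicate 4. The oocyte survival gene Bcl2l10 was at 0.615 to 12.6 CPM in NI 8C (median 3.54), against 349, 1074, 2382 and 328 CPM in NI 2C (−7.77 ± 1.02, adjusted p = 1.43e-07), and the pro-apoptotic genes moved apart, with Bax higher (2.52 ± 0.46, adjusted p = 2.54e-05) and Bik lower (−5.72 ± 0.90, adjusted p = 2.89e-06).

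A stricter rule picked genes that were all but absent at one stage and present in every pool of the other. It took those at no more than 1 CPM in all libraries of one stage and at least 10 CPM in all of the other; 13 were on in NI 8C and 38 were off. Chmp4c, of the complex that cuts the bridge between dividing cells, had 28.8 to 119 CPM in NI 8C (median 42.4) and no count in NI 2C, at least 240-fold higher against the floor of 3 counts over the 4 libraries. Ly6a, a surface antigen known from mouse stem cells, had 48 to 476 CPM in NI 8C (median 88.7), against 0.616, 0.959, 0 and 0.165 CPM in NI 2C. Vnn1, a pantetheinase, was 595-fold higher with a 95% exact counting interval of 203 to 2887, on 3 counts in NI 2C. Among the others switched on were D630045M09Rik, Dynap, Spi1, Crygs, Cish, Allc, Nqo2, Prl3b1 and Vars. Spi1 is the blood lineage factor PU.1, and its 14.7 to 102 CPM in NI 8C (median 32.5) stood beside a summed level of blood and fibroblast markers of 6.61 to 33.9 CPM in NI 8C and 9.57 to 55.4 CPM in NI 2C, whose part was not tested. Just outside the rule were Ppp2r2c, with a lowest NI 8C level of 9.65 CPM, and Ckmt1 and Nid1, each with 1.15 CPM in NI 2C replicate 4.

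Those off in NI 8C with the most RNA in NI 2C were Fam13c, Gm428, 1190005I06Rik, Lgals1, AA415398, Ifitm6, Rph3a and Zscan4a. Fam13c was at 0 to 0.916 CPM in NI 8C (median 0.304), against 205, 31.4, 352 and 42.4 CPM in NI 2C. Gm428 was at 0 to 0.611 CPM in NI 8C (median 0), against 23.4, 341, 100 and 72.8 CPM in NI 2C. Cnn1, Gm5177 and Mmp2 were kept out by a level of 9.85 CPM in NI 2C replicate 1. The counts hang on single pools: leaving out 1 library gave 13 to 20 genes on and 40 to 74 off, with the highest counts without NI 2C replicate 4 (20 on) and without NI 2C replicate 1 (74 off), and 60 off without NI 8C replicate 4.

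Markers of other cell types were low and lay in part in NI 2C. The 27 cumulus and granulosa cell markers summed to 59.6 to 99.2 CPM in NI 8C libraries and 42.5 to 165 CPM in NI 2C libraries; 12 had no count in NI 8C and 8 had none in NI 2C. Of the 13 tested, 6 fell and 1, Inhbb, rose, and 3 fell without NI 2C replicates 2 and 4. None rose without NI 2C replicate 4, and with NI libraries alone 4 were tested and 1 fell, with a median of −0.19 against −2.31. Inhba was at 0 in all NI 8C libraries, against 19.1, 18, 0 and 9.4 CPM in NI 2C, and Inha at 0 to 0.0682 CPM in NI 8C, against 7.39, 9.35, 1.44 and 9.07 CPM in NI 2C. Inhba, Inha and Lgals1, the last at 263, 76.8, 33.1 and 16.2 CPM in NI 2C, were lower in NI 8C, as were most genes of the maternal lists. Among the NI 2C pools the levels did not run together: Oosp1 and Omt2b were highest in replicate 3, where Inhba was at 0 and Inha lowest. The part of other cell types in any result was not tested, and in these pools fewer cells of a type and less RNA per cell cannot be told apart. Sperm markers summed to 3.07 to 10.1 CPM in NI 8C and 13 to 33.1 CPM in NI 2C, where 1 of 3 tested fell, the protamine gene Prm2, which reached 20.2 CPM in NI 2C replicate 3 and did not pass without it. Among blood and fibroblast markers 1 of 3 tested fell, C1qb.

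Sex-chromosome transcripts varied among pools. Xist, which silences an X chromosome in females, was at 0.682 to 207 CPM in NI 8C (median 105) and at 16, 5.28, 14.4 and 24.3 CPM in NI 2C (2.67 ± 0.95, adjusted p = 0.0179), with overlapping stages, and did not pass without NI 8C replicate 1 or NI 2C replicate 2. Tsix lies on the opposite strand, and since the labels do not say that counting used strand, its reads and those of Xist cannot be told apart. Of the Y-linked genes Ddx3y rose (2.73 ± 1.11, adjusted p = 0.0383) while Zfy1 (−3.77 ± 1.26, adjusted p = 0.0124) and Uty (−2.57 ± 1.04, adjusted p = 0.0385) fell. Ddx3y lost the call under 9 of 17 alternatives, each of the 4 NI 2C libraries left out among them. Uty lost it under 9 of the 16 that gave a value, and Zfy1 lost it without NI 2C replicates 2 and 4. With 4 to 5 embryos in a pool, the share of male embryos can differ between libraries, and no label gives it.

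The stage difference of NI embryos was set against that of Ctrl embryos in the same fit. No gene passed the interaction test of edgeR at an adjusted p of 0.05 (0.0% of 13158), 2679 had an unadjusted p under 0.05, and the lowest adjusted p was 0.0523. That lowest value was for Antxr2, an anthrax toxin receptor, with a mean of 0.568 ± 0.524 CPM in NI 8C and 18.6 ± 6.18 CPM in NI 2C (SD, n = 6 and 4); the corresponding means in Ctrl were 0 at 8C and 94.9 CPM at 2C. Nlrp4g fell by 3.39 in NI, and averaged 0.127 CPM in Ctrl 8C and 217 CPM in Ctrl 2C (interaction adjusted p = 0.0699). The gene 9030624J02Rik rose by 3.56 in NI, with 53 ± 21.3 CPM in NI 8C and 4.51 ± 2.81 CPM in NI 2C (SD, n = 6 and 4), and averaged 49.7 CPM in Ctrl 8C and 58.1 CPM in Ctrl 2C (interaction adjusted p = 0.0699). The count changed with the NI 2C libraries used: without NI 2C replicates 2 and 4, 442 genes passed the interaction test, against 0 with all libraries. A count of 0 does not show that the stage differences were alike in the NI and Ctrl embryos.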

How the data were processed

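RNA-seq libraries of pooled mouse embryos were analysed from gene-level expected counts that the authors deposited; per the submitters' processing notes these came from Bowtie2 and RSEM on mm10, with versions not given in the sources used here. RSEM estimates shares of ambiguous reads, and 9.85% of values were not whole, so counts were rounded. Totals per library are given with the results, and counting intervals cover counting error only. All 36 libraries were fitted with edgeR 4.0.16 in R 4.3.3 (TMM, low genes removed by filterByExpr, min.count 10 and min.total.count 15, robust quasi-likelihood, 6 group means), with Benjamini-Hochberg adjustment at 0.05; the interaction was (NI 8C minus NI 2C) minus (Ctrl 8C minus Ctrl 2C). Single values were tested by an exact permutation over 10 libraries (scipy 1.17.1), with 1 CPM added before logs in gene pairs. The fit was tested on simulated data. In 21 replicate pairs no files were identical, and the chi-square per degree of freedom was at least 33.5.

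Members and lists were chosen with earlier results of these data known. Named genes were the 12 smallest p in each direction with a mean of at least 50 CPM in the higher stage, up to 4 per list, all 23 pairs, the 8 most abundant per stage, the 8 most abundant switched genes per direction with 3 on each side of the bounds, 6 of the interaction, and the 6 longest runs. A few named genes and 1 run are not reported here. Other genes named, among them members that went against their list and the genes that lists of 5 or fewer hold, were chosen after their values were seen. Alternatives were DESeq2 1.42.0, RLE scaling, no count filter, NI libraries alone, other thresholds, and each library left out; leaving out pairs of libraries was chosen after seeing the data. Promoters and positions came from RefSeq and GENCODE tables, and checks on classes with promoters for fewer than 80% of genes were void.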

Additional observations from a re-analysis of the deposited data

Results flagged for a closer look

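Within a stage, the lowest or highest library stood far from the others by Dixon's test for 36 of 454 groups of values examined. Chance alone marks about 1 in 20 of normally distributed values, a rate that does not hold for genes near 0. Where the other libraries are all at 0, a single count marks a library, as for D630045M09Rik, Dynap, Spi1 and Allc in NI 2C. Those genes had been picked for low levels in NI 2C. The values are log2(CPM + 1) unless stated. The cause was not tested. NI 8C replicate 1 stood apart with 0.21 for AA415398 and 9.61 for Eif3b. NI 8C replicate 2 stood apart with 0.84 for Dsc2, 4.00 for H1f0 and 1.36 for Krt20. NI 8C replicate 4 stood apart with 0.10 for Inha, 0.86 for Mmp2, 1.64 for Tcl1b5 and 2.98 for Wee2. NI 8C replicate 5 stood apart with 9.21 for Fdps, 4.43 for Glcci1 and 3.04 for Parp12. NI 8C replicate 6 stood apart with 1.15 for Cdh2, 8.90 for Ly6a and 0.38 for Pdk3. NI 2C replicate 1 stood apart with 2.71 for Cdh2, 0.69 for D630045M09Rik and 4.33 for Id1. NI 2C replicate 2 stood apart with 1.14 for Amotl2, 0.31 for Dynap, 3.90 for Fzd7 and 3.37 for Id3. NI 2C replicate 3 stood apart with 2.20 for Igf2bp1, 1.29 for Inha, 15.48 for Rn45s, 0.00 for Slc6a8 and 0.78 for Spi1. NI 2C replicate 4 stood apart with 0.22 for Allc, 1.11 for Ckmt1, 8.75 for Dnaja1, 1.11 for Nid1, 1.73 for Pdgfa, 0.41 for Prl3b1 and 6.88 for Stag2. Among the gene pairs, the log2 ratio of Patl2 to Patl1 was −0.85 in NI 8C replicate 6 and that of Stag3 to Stag2 was −6.29 in NI 8C replicate 1.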

How the results depend on the processing

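No paired analysis was possible because the replicate numbers were given in accession order and pair no samples. The count of changed genes was 7458 with DESeq2, 6748 with RLE scaling, 7304 without a count filter, 5091 with NI libraries alone and 5824 to 6454 with 1 library left out, against 6560; genes lower numbered 2597 with NI libraries alone, where filter and scaling were redone. The interaction gave 2 genes without a count filter, 0 to 1 with 1 library left out, 442 without NI 2C replicates 2 and 4 and 1 without NI 8C replicates 5 and 6, an alternative chosen after seeing the data like the other pairs. Genes switched on numbered 5 at a low bound of 0.5 CPM, 5 at a high bound of 20 CPM, 13 to 20 with 1 library left out, 23 without NI 2C replicates 1 and 3 and 43 without replicates 2 and 4; genes switched off numbered 4, 7, 40 to 74, 105 and 83 in the same order, and 72 without NI 8C replicates 5 and 6, since fewer libraries make the rule easier to meet. The difference in the share of the top 50 genes was −9.44 to −4.26 percentage points with 1 library left out, −6.75 for the top 10 genes −12.4 without NI 2C replicates 2 and 4 and −1.15 (exact permutation p = 0.643) without replicates 1 and 3. Pairs called numbered 11 to 15 with 1 library left out, and 0 without NI 2C replicates 1 and 3 and 0 without replicates 2 and 4, where 6 against 2 libraries allow few arrangements. The BCL2 list median of −0.17 lay between −0.30 and 0.05 with 1 library left out, and was 0.02 with NI libraries alone, 0.05 without NI 8C replicate 6, 0.56 without NI 2C replicates 2 and 4 and 0.04 without NI 8C replicates 5 and 6, and Ldha became 0.40 without NI 2C replicates 2 and 4; the cause was not tested. Of 214 named genes tested, 188 passed, 163 of them under all 17 alternatives, 4 under every alternative that gave a value, and 21 lost the call under at least 1. With 1103585 counts in the shallowest library, genes near 1 CPM rest on about 1 count there.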
